A study of Homo sapiens with 12 samples.

Results

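Histone messenger RNAs were measured in the bladder cancer cell line UM-UC-3, an established human line, transfected with the miR-101 precursor or an siRNA against EZH2. The histone set took every probe whose gene symbol begins with HIST1H, HIST2H, HIST3H, HIST4H, H1F, H2AF or H3F, the older histone names. It held 78 genes on 81 probes, out of 24997 gene symbols on the 46713 probes of the array. Of the 81, 65 probes report 64 replication-dependent genes and 16 report 14 variant genes. There were 4 groups of 3 arrays each: the miR-101 precursor, the control miRNA precursor that is its own control, the EZH2 siRNA, and the control siRNA that is its own control. Every transfection was at 50 nM for 72 h in the same line, and 200 ng of total RNA was labelled from each sample. Nothing in the labels says whether the triplicates were separate cultures, so a p-value here rests on a spread between arrays that may be only technical.

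Histones package DNA into nucleosomes, and their supply is tied to DNA synthesis. Replication-dependent genes lie in clusters, are transcribed in S phase, and mostly give mRNAs that end in a stem-loop without a poly(A) tail. Variant genes lie alone and mostly give polyadenylated mRNA through the cell cycle. They encode proteins such as H2A.Z, H2A.X, macroH2A and H3.3 that replace the canonical histones in part. H2AFX, the gene of H2A.X, was placed among the variants by its name, although it also has a stem-loop transcript. EZH2 is the catalytic subunit of Polycomb repressive complex 2, which methylates lysine 27 of histone H3. The labelling kit primes from poly(A), so the arrays report the polyadenylated fraction of the replication-dependent mRNAs. Copies of the clustered genes are nearly identical in their coding parts, so a probe of such a gene may also bind its relatives, and values of single clustered genes are uncertain in that respect. HIST2H2AA and HIST2H4 each have a duplicated copy in the human genome.

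The mature miR-101-3p in RefSeq, on GRCh38.p14 at chr9:4850345-4850365 on the plus strand, is shown because its seed, bases 2 to 8 in capitals, sets which mRNAs a microRNA binds.
miR-101-3p: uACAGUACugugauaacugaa
The upstream sequences that follow are from RefSeq on GRCh38.p14, the 250 bases before the annotated start, read 5′ to 3′ on the gene's strand. They belong to the H2B genes HIST1H2BD (chr6:26157871-26158120, plus strand), HIST1H2BK (chr6:27146859-27147108, minus strand) and HIST2H2BE (chr1:149886683-149886932, minus strand), and to the variants H2AFX (chr11:119095466-119095715, minus strand) and H2AFZ (chr4:99950276-99950525, minus strand). The first 2 were higher with both treatments, HIST2H2BE moved opposite ways in the treatments, and the variants were lower with miR-101. Capitals mark CCAAT, the octamer ATTTGCAT and TATAAA on either strand, so CCAAT also appears as ATTGG and TATAAA as TTTATA, and the TATAAA letters of both strands can overlap.
HIST1H2BD: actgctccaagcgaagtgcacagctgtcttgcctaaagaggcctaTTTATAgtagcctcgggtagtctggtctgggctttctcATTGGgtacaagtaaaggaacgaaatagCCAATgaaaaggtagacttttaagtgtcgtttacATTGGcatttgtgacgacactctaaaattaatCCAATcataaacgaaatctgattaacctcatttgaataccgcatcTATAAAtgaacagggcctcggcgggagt
HIST1H2BK: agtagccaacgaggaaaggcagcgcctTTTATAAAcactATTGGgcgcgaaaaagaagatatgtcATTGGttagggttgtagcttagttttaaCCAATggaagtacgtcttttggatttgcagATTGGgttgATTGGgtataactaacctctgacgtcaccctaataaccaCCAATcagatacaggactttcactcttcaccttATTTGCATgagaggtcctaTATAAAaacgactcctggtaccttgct
HIST2H2BE: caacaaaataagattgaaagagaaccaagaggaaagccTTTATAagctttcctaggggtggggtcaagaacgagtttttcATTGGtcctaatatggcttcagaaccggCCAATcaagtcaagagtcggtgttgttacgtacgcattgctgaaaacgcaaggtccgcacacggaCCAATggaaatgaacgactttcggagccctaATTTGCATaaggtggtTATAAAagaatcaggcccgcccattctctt
H2AFX: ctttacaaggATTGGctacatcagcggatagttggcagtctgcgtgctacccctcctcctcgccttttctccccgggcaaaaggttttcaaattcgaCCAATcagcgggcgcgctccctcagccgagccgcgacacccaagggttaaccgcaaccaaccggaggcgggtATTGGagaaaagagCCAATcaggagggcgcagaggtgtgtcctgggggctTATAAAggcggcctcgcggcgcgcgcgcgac
H2AFZ: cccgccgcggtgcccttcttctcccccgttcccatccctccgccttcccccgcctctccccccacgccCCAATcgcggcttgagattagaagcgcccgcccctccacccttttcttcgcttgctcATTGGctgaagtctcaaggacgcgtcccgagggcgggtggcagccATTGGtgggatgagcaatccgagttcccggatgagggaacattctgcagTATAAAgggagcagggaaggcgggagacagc
CCAAT occurred 4 times upstream of HIST1H2BD, 6 times upstream of HIST1H2BK and 3 times upstream of HIST2H2BE. It occurred 4 times upstream of H2AFX and 3 times upstream of H2AFZ. The octamer, the site of the POU factors that drive H2B genes, occurred 1 time each upstream of HIST1H2BK and HIST2H2BE.

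Upstream sequence was matched for 72 of the 78 histone genes. CCAAT was found upstream of 88.1% of 59 replication-dependent genes and 76.9% of 13 variant genes, against 33.0% of all 27305 promoters. The octamer was found upstream of 77.8% of 18 replication-dependent H2B genes and 73.3% of 15 H2A genes, but of 0 of the 10 H4 genes and 1 of the 10 H3 genes, against 1.66% of all promoters. TATAAA was found upstream of 64.4% of replication-dependent and 30.8% of variant genes, against 11.1% of all promoters. An E2F-type motif, TTTCGCGC or TTTGGCGC on either strand, was found upstream of 18.6% of replication-dependent and 0 variant genes, against 0.996% of all promoters. These matches describe letters in the window, not bound sites.

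Between 15453 and 16377 probes were detected per array, at a detection p-value under 0.05, and the mean signal per array was 304 to 497. The precursor groups lay on 1 chip and the siRNA groups on the other, so differences between those pairs cannot be told apart from the chip. On each chip the controls held the first 3 positions and the treated samples the last 3, so treatment cannot be told apart from position either. Of 11 urothelial marker genes, PPARG, KRT18 and UPK1B were detected on all 12 arrays, KRT7 on 5 and UPK1A on 1. UPK2, UPK3A, KRT5, KRT20, GATA3 and TP63 were detected on 0 arrays, so the labelled tissue of origin shows in only part of its markers. Among markers of other cell types, THY1 was detected on 12 arrays, PECAM1 on 8, HBA1 on 7, PTPRC on 5, DCN on 3 and LUM on 1, with a mean signal of at most 175. CD3E, CD14, HBB, VWF, CDH5 and COL1A2 were detected on 0 arrays. The part of other cell types in the results was not tested. Both EZH2 probes fell with both treatments. The probe ILMN_20896 changed by -0.89 with miR-101 and by -1.21 with EZH2 siRNA, on the log2 scale (limma adjusted p 0.000375 and 0.000546).

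Of the 81 histone probes, 57 were detected on 3 or more of the 12 arrays and were tested for change, 45 replication-dependent and 12 variant. The other 24 did not pass, and 19 of them were detected on 0 arrays. HIST1H2AI lay just inside this limit, detected on 3 arrays, all of the control precursor, with signals of 86.6 to 112.6. HIST1H2AB lay just outside it, on 2 arrays with signals of 77.6 to 115.8. Among those that did not pass were the linker histone genes HIST1H1A, HIST1H1B and HIST1H1E, the testis gene HIST1H1T, the oocyte gene H1FOO, and all 3 H2AFB probes. Detection of the set was 50, 50 and 49 probes on the miR-101 arrays, against 55, 54 and 56 on the control precursor arrays. Of all probes those arrays detected 16114, 15652 and 15665, against 15584, 16009 and 15453. It was 49, 49 and 44 probes on the EZH2 siRNA arrays, against 44, 43 and 41 on the control siRNA arrays, so these counts met at 44. Of all probes those arrays detected 16204, 15751 and 15653, against 15718, 16377 and 15849. The detection counts were not tested.

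Most replication-dependent probes were dim. Of the 45 tested, 26 had a highest signal under 200 over all arrays, while the median signal per array was 80.4 to 100.1, and 19 reached 200 or more. The background estimate of the main analysis compressed the changes of such dim probes. On each array 84 to 118 probes were brighter than 200 but not called detected, and they widened the background SD to between 103 and 192. No histone probe was among them. Another estimate, chosen after the data were seen, took the median and the median absolute deviation of the background instead. It is called the restricted background here, and its values are given for some of the low probes.

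**Figure D1:**
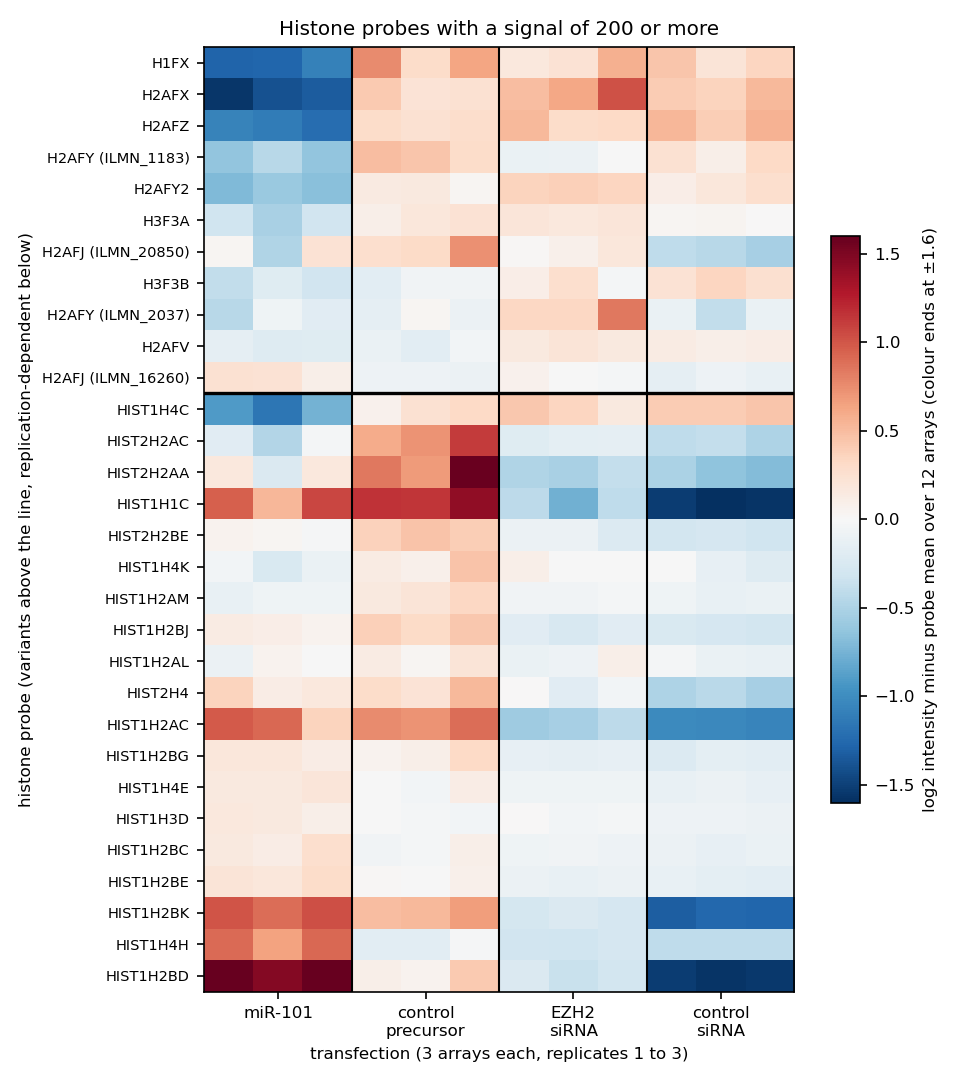
Heat map of the histone probes whose signal reached 200 on any array. Rows are probes, with variant genes above the line and replication-dependent genes below, and columns are the 12 arrays in the order miR-101, control precursor, EZH2 siRNA and control siRNA. Colour is the normalized log2 intensity minus the probe's mean over 12 arrays and ends at ±1.6. H1FX, H2AFX and H2AFZ are lowest on the 3 miR-101 arrays, while HIST1H1C, HIST1H2AC, HIST1H2BD and HIST1H2BK are lowest on the 3 control siRNA arrays.

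With miR-101, set against the control precursor, most variant probes fell. The clustered genes had calls in both directions, as all probes together did. Of the 12 variant probes 7 fell and 1 rose, with a median log2 change of -0.53, and of the 45 replication-dependent probes 12 fell and 7 rose, with a median of -0.04. Together 19 of 57 histone probes were lower and 8 were higher, at an adjusted p under 0.05 in limma. Over all 17844 probes tested, 18.5% were lower and 19.8% were higher, with a median of -0.0036. The 3 miR-101 arrays and the 3 control arrays did not overlap for 36 of the 57, or 63.2%, beside 48.1% of all probes. In bulk RNA, fewer cells in S phase and less mRNA per cell cannot be told apart. The variant H2A genes H2AFX and H2AFZ and the linker variant H1FX had the largest falls, and HIST1H2BD had the largest rise.

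H2AFX encodes H2A.X, the histone whose phosphorylated form marks DNA breaks. Its normalized log2 intensity was 8.80, 8.97 and 9.02 on the miR-101 arrays, against 10.78, 10.58 and 10.60 on the control precursor arrays. All 3 miR-101 arrays lay below all 3 control arrays, and the means were 8.93 ± 0.118 and 10.65 ± 0.107 (SD, n = 3 each). The fall was 1.72 ± 0.124 on the log2 scale (SE), which left 30.3% of the control level (limma adjusted p 5.35e-06). H2AFX did not pass the test with EZH2 siRNA, where the arrays read 10.86, 10.97 and 11.37, against 10.76, 10.71 and 10.88 with control siRNA. Those groups overlapped, and the 95% interval of the change ran from 0.01 to 0.56 (adjusted p 0.223).

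H2AFZ encodes H2A.Z, the variant found at gene starts and enhancers. It read 12.64, 12.58 and 12.49 on the miR-101 arrays, against 14.00, 13.95 and 13.98 on the control precursor arrays. The miR-101 arrays stood well below the control arrays, with 0.079 and 0.0266 as the SD of each group. The log2 change was -1.41 (SE 0.0665, limma adjusted p 4.53e-07), and 37.7% of the control level was left. H2AFV, which encodes the second H2A.Z protein, had low raw signals of 104 to 146 with miR-101 and 126 to 155 with the control precursor. Its log2 change of -0.07 missed the threshold (adjusted p 0.11), and with the restricted background it was -0.44 (adjusted p 0.029).

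H1FX encodes a linker histone that is not tied to replication. On the miR-101 arrays it read 7.16, 7.17 and 7.36, against 9.19, 8.74 and 9.07 on the control precursor arrays. No miR-101 array came near a control array, and the log2 change was -1.77 (SE 0.136, limma adjusted p 8.29e-06), the largest fall in the set. The other linker variant, H1F0, known as the histone of resting and differentiated cells, read 6.83 to 6.89 with miR-101 and 6.83 to 6.86 with the control precursor. It was detected on 8 of 12 arrays and passed no test.

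MacroH2A carries a large folded domain beside its histone part and is found on repressed chromatin. H2AFY2, the gene of macroH2A2, read 10.03, 10.14 and 10.07 with miR-101, against 10.87, 10.89 and 10.77 with the control precursor, and fell by 0.76 (SE 0.0467, limma adjusted p 2.04e-06). The groups did not overlap. H2AFY, the gene of macroH2A1, has 2 probes, which the files annotate to different transcripts. ILMN_1183 read 9.50, 9.70 and 9.51 with miR-101, against 10.63, 10.58 and 10.43 with the control precursor, and fell by 0.98 (adjusted p 8.52e-06). ILMN_2037 read 9.37, 9.75 and 9.63 with miR-101, against 9.67, 9.85 and 9.72, with overlap and a log2 change of -0.17 (95% interval -0.51 to 0.17, adjusted p 0.447).

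H3.3, the replacement form of histone H3, is encoded by H3F3A and H3F3B. H3F3A read 13.34, 13.15 and 13.36 on the miR-101 arrays, against 13.77, 13.85 and 13.89 on the control precursor arrays, and fell by 0.55 (SE 0.0534, limma adjusted p 3.43e-05). H3F3B read 9.45, 9.65 and 9.54 with miR-101, against 9.68, 9.79 and 9.79. The H3F3B groups did not overlap either, but the change of -0.21 missed the threshold (adjusted p 0.0536). H2AFJ, the gene of an H2A variant that differs from canonical H2A mainly in its tail, gave calls of opposite sign on its 2 probes. ILMN_16260 rose by 0.27 on the log2 scale (adjusted p 0.000601), with 7.38, 7.37 and 7.23 with miR-101, against 7.06, 7.06 and 7.05. ILMN_20850 fell by 0.51 (adjusted p 0.0429), with 9.74, 9.23 and 9.94 with miR-101, against 9.99, 10.02 and 10.44, and this call was kept under 11 of 24 alternative settings.

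**Figure D2:**
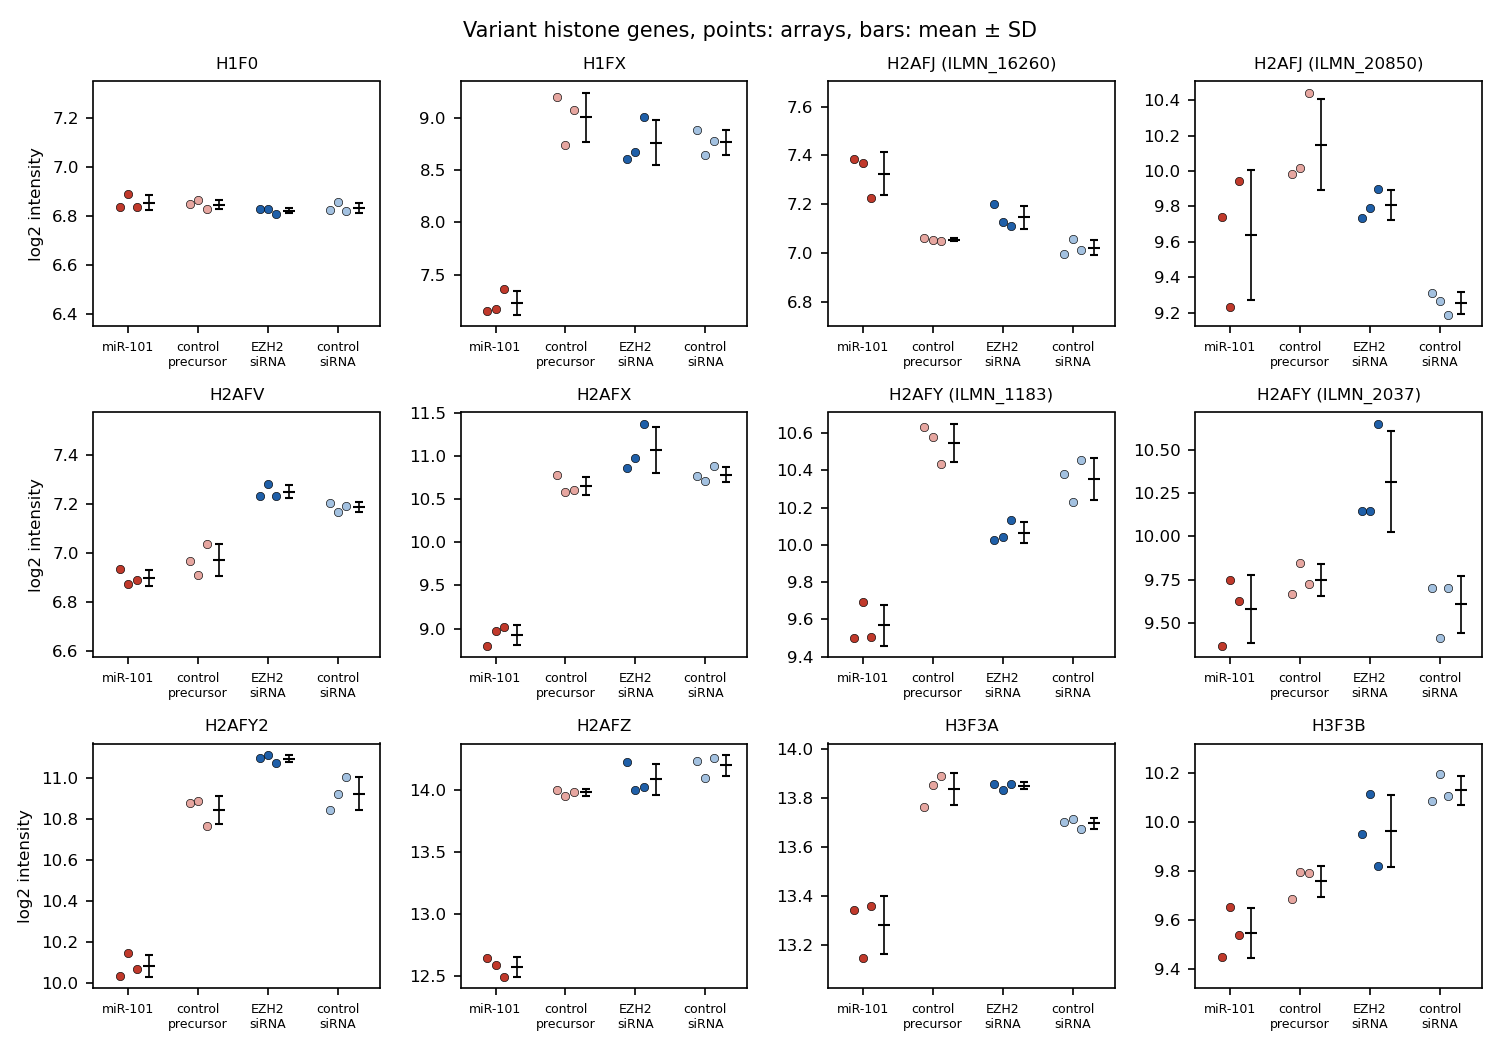
Normalized log2 intensity of the 12 variant probes that were tested, 1 panel each. Points are arrays, 3 per group, and bars are the mean ± SD. The y axis spans at least 1 log2 unit and differs between panels. H1FX, H2AFX and H2AFZ are lower on the 3 miR-101 arrays than on every other array, and the 2 H2AFY probes differ in their pattern across the groups.

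Among the clustered genes, HIST1H4C, a histone H4 gene, read 13.48, 13.23 and 13.63 on the miR-101 arrays, against 14.45, 14.63 and 14.70 on the control precursor arrays. The groups lay clearly apart, and the log2 change was -1.15 (SE 0.105, limma adjusted p 2.51e-05), which left 45.1%. With EZH2 siRNA it read 14.81, 14.74 and 14.54, against 14.79, 14.79 and 14.83 with control siRNA, and did not pass the test (change -0.11, adjusted p 0.657). HIST1H4K, another H4 gene, fell by 0.36 with miR-101 (adjusted p 0.0172). That call was lost when arrays were scaled to a common median, when the 2 groups were fitted alone, and without miR-101 replicate 2.

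The HIST2 genes form a smaller cluster on chromosome 1. Of its 5 tested probes 4 fell and 0 rose with miR-101, beside 18.5% of all probes lower and 19.8% higher. The median log2 change of the 5 was -0.38. HIST2H2AC, an H2A gene, read 7.50, 7.21 and 7.65 with miR-101, against 8.28, 8.40 and 8.80 with the control precursor, and fell by 1.04 (SE 0.137, limma adjusted p 0.000245). HIST2H2AA, a further H2A gene of the cluster, read 7.88, 7.47 and 7.88, against 8.55, 8.39 and 9.28, and fell by 1.00 (SE 0.206, adjusted p 0.0037). In both genes the highest miR-101 array was below the lowest control array. HIST2H2BE, whose upstream sequence is printed above, read 7.29, 7.27 and 7.21 with miR-101, against 7.60, 7.68 and 7.63, and fell by 0.38 (adjusted p 4.57e-05). HIST2H3C, an H3 gene near the detection limit, fell by 0.07 (adjusted p 0.00685), and by 0.70 with the restricted background. It was detected on 3 control precursor arrays, 1 miR-101 array and 0 arrays of either siRNA group. It thus passed the filter only through the group where it was high, which favoured a fall. HIST2H4 did not pass the test (change -0.13, adjusted p 0.309).

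Of the 8 rises with miR-101, 4 were in H2B genes. HIST1H2BD, whose gene also gives a polyadenylated transcript, read 11.42, 11.09 and 11.29 on the miR-101 arrays, against 9.71, 9.68 and 10.03 on the control precursor arrays. Every miR-101 array was more than 1 log2 unit above every control array, and the rise was 1.46 (SE 0.10, limma adjusted p 3.97e-06), a 2.75-fold difference. Another HIST1H2BD probe was detected on 1 array and was not tested. HIST1H2BK, another H2B gene, read 13.42, 13.31 and 13.45 with miR-101, against 12.91, 12.93 and 13.08, and rose by 0.42 (SE 0.0501, adjusted p 0.000135). The raw ranges of HIST1H2BK overlapped, at 6780 to 13405 with miR-101 and 8992 to 10350 with the control precursor, while the normalized values did not. The HIST1H2BK call was lost with median scaling. The H4 gene HIST1H4H read 8.18, 7.92 and 8.19, against 7.10, 7.11 and 7.26, and rose by 0.94 (SE 0.0692, adjusted p 6.23e-06). That is 1.92-fold, and with the restricted background the rise was 2.83-fold.

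Smaller rises were called in 4 genes whose highest signal was 204.2 to 225.6. HIST1H2BE had raw signals of 226, 155 and 195 with miR-101, against 162, 143 and 153 with the control precursor. The raw ranges overlapped, and the normalized values did not; miR-101 replicate 2 had the lowest mean signal of the 12 arrays. Its log2 change was 0.20 (limma adjusted p 0.000744), and 0.71 with the restricted background. HIST1H2BC and HIST1H3D, an H2B and an H3 gene, rose by 0.18 and 0.17, and by 0.68 and 0.71 with the restricted background. HIST1H4E rose by 0.14 (adjusted p 0.0108). The raw ranges of HIST1H2BC, HIST1H3D and HIST1H4E overlapped as well. In the other direction the H2A gene HIST1H2AM had raw signals of 129, 117 and 119 with miR-101, against 210, 217 and 221. It fell by 0.31 (adjusted p 0.000161), and by 1.22 with the restricted background.

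The clustered genes were also counted by core type, without a test between the types, beside 18.5% of all probes lower and 19.8% higher. With miR-101, of 13 H2A probes 3 fell and 0 rose, of 12 H2B probes 3 fell and 4 rose, of 10 H3 probes 4 fell and 1 rose, and of 8 H4 probes 2 fell and 2 rose. Neither of the 2 tested H1 probes passed. Of the 27 called histone probes, 1, HIST1H3C, was undetected on all 3 arrays of a group, so its level there is only a bound. With the restricted background 26 of the 57 histone probes were lower and 9 higher, beside 20.3% and 20.7% of all probes, and the replication-dependent median was -0.29. Of the 26 dim replication-dependent probes 5 were called, and of the 19 brighter ones 14.

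With EZH2 siRNA, set against control siRNA, few histone probes passed, and nearly all that did were higher. Of 57 probes 8 rose and 1 fell, beside 4.42% and 3.84% of all 17844 probes. The replication-dependent probes counted 7 higher and 0 lower, with a median log2 change of 0.04, and the variant probes 1 higher and 1 lower, with a median of 0.09. The median of all probes was 0.0013. The groups did not overlap for 28 of the 57, or 49.1%, beside 29.4% of all probes. With the restricted background 14 of the 57 were higher and 0 lower, beside 4.35% and 4.03% of all probes. HIST1H2BD, HIST1H1C and HIST1H2BK had the largest rises.

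HIST1H2BD read 9.38, 9.27 and 9.33 on the EZH2 siRNA arrays, against 8.10, 8.05 and 8.07 on the control siRNA arrays. The rise was 1.25 on the log2 scale (SE 0.10, limma adjusted p 0.000168), or 2.38-fold, with a wide gap between the groups. HIST1H2BK read 12.13, 12.18 and 12.15 with EZH2 siRNA, against 11.09, 11.15 and 11.15, and rose by 1.02 (SE 0.0501, adjusted p 1.09e-05), likewise without overlap. HIST1H1C, which encodes the abundant somatic linker histone H1.2, read 8.75, 8.39 and 8.75 with EZH2 siRNA, against 7.65, 7.57 and 7.59. Its rise was 1.03 (SE 0.146, adjusted p 0.00282). With miR-101 its change of -0.39 missed the threshold (adjusted p 0.0639).

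The other rises with EZH2 siRNA were smaller and less stable. HIST1H2AC, an H2A gene, read 7.68, 7.71 and 7.82 with EZH2 siRNA, against 7.23, 7.21 and 7.18, and rose by 0.53 (limma adjusted p 0.0484), a call kept under 12 of 24 alternative settings. HIST2H4 read 7.74, 7.55 and 7.68, against 7.24, 7.30 and 7.19, and rose by 0.41 (adjusted p 0.0205), kept under 18 of 24. HIST2H2BE read 7.15, 7.14 and 7.02, against 6.94, 6.96 and 6.92, and rose by 0.16 (adjusted p 0.032), kept under 14 of 24. None of these groups overlapped. HIST1H3H, a dim H3 gene, rose by 0.13 (adjusted p 0.0307, kept under 15 of 24), and by 0.79 with the restricted background. With miR-101 it fell by 0.19 (adjusted p 0.000811), and by 0.88 with the restricted background.

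The variant genes held the only fall with EZH2 siRNA. The H2AFY probe ILMN_1183 read 10.03, 10.04 and 10.13 with EZH2 siRNA, against 10.38, 10.23 and 10.45 with control siRNA, and fell by 0.29 (limma adjusted p 0.0486), a call kept under 9 of 24 alternative settings. The H2AFY probe ILMN_2037 read 10.15, 10.15 and 10.65, against 9.70, 9.41 and 9.70, and rose by 0.71 (adjusted p 0.0207). That rise was lost when the 2 groups were fitted alone and without control siRNA replicate 2 or 3. The 2 H2AFY probes thus gave changes of opposite sign, and whether they measure separate transcripts was not tested. H1FX, with 8.61, 8.67 and 9.00 against 8.88, 8.64 and 8.78, gave a change of -0.01 (95% interval -0.32 to 0.30).

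**Figure D3:**
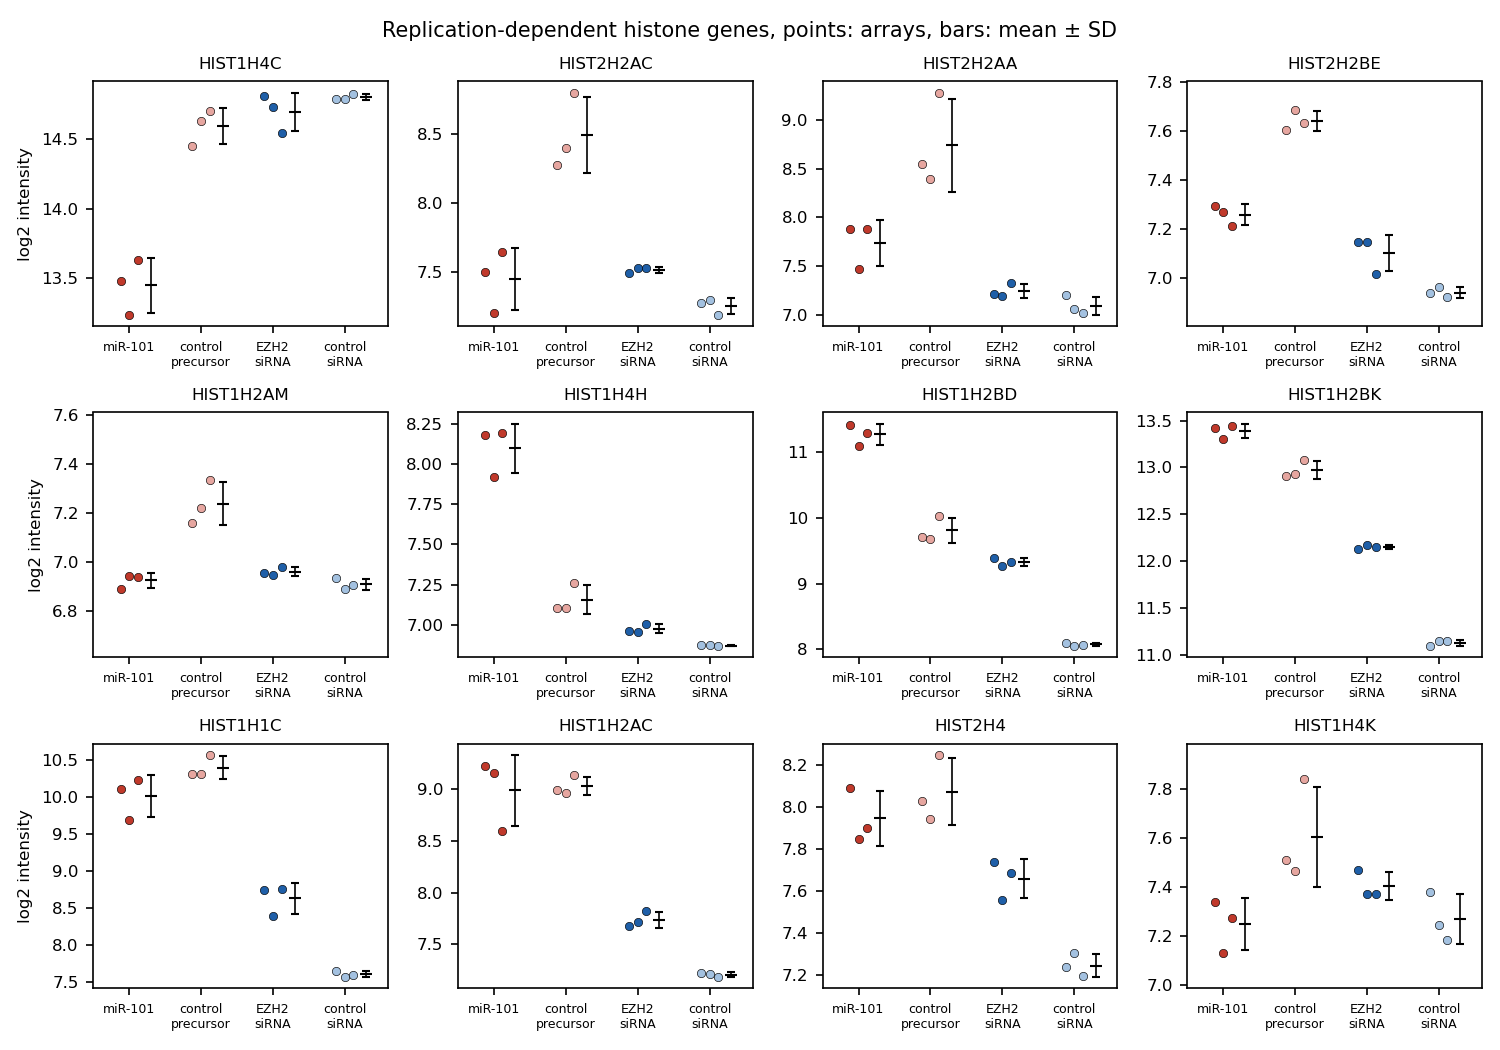
Normalized log2 intensity of 12 replication-dependent probes, 1 panel each. Points are arrays, 3 per group, and bars are the mean ± SD. The y axis spans at least 1 log2 unit and differs between panels. HIST1H2BD is higher on the miR-101 arrays than on the control precursor arrays and higher on the EZH2 siRNA arrays than on the control siRNA arrays, and its 3 control siRNA arrays are the lowest of all 12.

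HIST1H2BD and HIST1H2BK were the 2 histone probes higher with both treatments against their own controls. The share of all probes higher with both was not counted, so whether this count is particular to histone probes was not tested. The test of the difference between the responses, miR-101 minus EZH2 siRNA, called 24 of 57 histone probes lower and 3 higher, beside 13.8% and 14.6% of all probes. HIST1H2BD gave a difference of 0.21 (SE 0.142, 95% interval -0.11 to 0.53, limma adjusted p 0.34), so its responses were not told apart. HIST1H2BK rose less with miR-101, with a difference of -0.60 (adjusted p 0.000222). H2AFX had the largest difference, -2.01 (SE 0.175, adjusted p 3.84e-05), followed by H1FX with -1.76, HIST1H1C with -1.41, HIST2H2AC with -1.30 and H2AFZ with -1.29. All 5 tested probes of the chromosome 1 cluster were lower in this test, with a median difference of -0.55. They include HIST2H3C, which passed the detection filter only through the control precursor arrays.

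**Figure D4:**
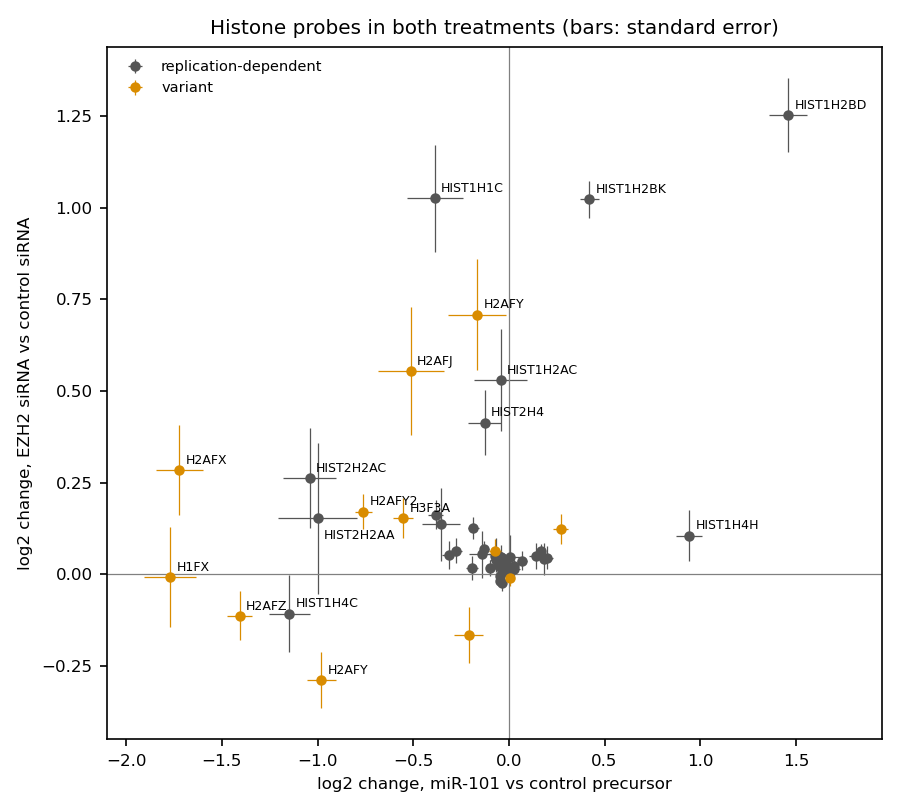
Log2 change of the 57 tested histone probes with miR-101 against the control precursor (x axis) and with EZH2 siRNA against control siRNA (y axis). Points are probes, coloured by class, with standard errors as bars. HIST1H2BD lies at 1.46 and 1.25, HIST1H1C at -0.39 and 1.03, and H1FX at -1.77 and -0.01.

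The controls themselves differed in histone mRNA. With control siRNA, set against the control precursor, 31 of 45 replication-dependent probes were lower and 0 higher, with a median log2 change of -0.12, while the variant probes counted 1 lower and 3 higher, with a median of -0.02. With the restricted background those medians were -0.79 and -0.13, and that of all probes was -0.02. That made 32 lower and 3 higher of 57, beside 12.1% and 11.6% of all probes. As the groups lay on different chips, transfected agent and chip cannot be told apart. HIST1H1C read 7.65, 7.57 and 7.59 with control siRNA, against 10.32, 10.31 and 10.58 with the control precursor, and fell by 2.80 (SE 0.146, limma adjusted p 2.86e-06). Over the 5 comparisons only the rise of HIST1H2BD with miR-101 over control siRNA was larger. HIST1H2BK, HIST1H2AC and HIST1H2BD fell by 1.84, 1.82 and 1.73. All 5 tested probes of the chromosome 1 cluster were lower, with a median of -0.83, HIST2H3C among them, which passed the filter only through the control precursor arrays. The higher ones were H3F3B by 0.37, H2AFV by 0.22, or 0.84 with the restricted background, and H2AFZ by 0.22. The H2AFZ call was kept under 15 of 24 alternative settings and lost with median scaling, the restricted background and no filter. It was also lost without control siRNA replicate 1 or 3, without any 1 of the control precursor arrays, and without miR-101 replicate 2. Of the 35 called, 7 were undetected on all control siRNA arrays, and all 7 are dim clustered genes. Among them HIST1H2AI was detected on the 3 control precursor arrays alone, and HIST1H4B on these and 2 miR-101 arrays. Like HIST2H3C, they passed the filter only through the control precursor arrays, which favoured a fall.

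For part of the clustered genes the direction depended on the control used. Set against control siRNA, miR-101 gave 21 histone probes higher and 10 lower, beside 19.1% and 17.1% of all probes. Replication-dependent probes counted 20 higher and 2 lower there, and variant probes 1 higher and 8 lower. Of the 31 called there, 5 were undetected on all 3 arrays of a group, all of them clustered genes. EZH2 siRNA set against the control precursor gave 4 higher and 24 lower, beside 12.3% and 11.7% of all probes, with 0 higher and 23 lower among replication-dependent probes. Of those 28 called, 4 were undetected on all 3 arrays of a group, again all clustered genes. Both comparisons cross the chips and share controls with the others.

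Calls that kept their sign against both controls were fewer. The matching shares over all probes were not counted, so whether the counts that follow are particular to histone probes was not tested. With miR-101, 7 probes were lower against both, for H1FX, H2AFX, H2AFY (ILMN_1183 only), H2AFY2, H2AFZ, H3F3A and HIST1H4C. Of these HIST1H4C alone is a clustered gene. H2AFX fell by 1.85 and H2AFZ by 1.63 against control siRNA, beside 1.72 and 1.41 against the control precursor. A further 8 probes were higher against both, for H2AFJ (ILMN_16260), HIST1H2BC, HIST1H2BD, HIST1H2BE, HIST1H2BK, HIST1H3D, HIST1H4E and HIST1H4H. The H2AFJ probe ILMN_20850 was instead lower than with the control precursor. HIST1H2BD was 3.19 higher than with control siRNA. HIST1H2BJ, HIST2H2AA and HIST2H2BE turned, being lower than with the control precursor and higher than with control siRNA. With EZH2 siRNA, 7 of the 8 rises against control siRNA were falls against the control precursor, for HIST1H1C, HIST1H2AC, HIST1H2BD, HIST1H2BK, HIST1H3H, HIST2H2BE and HIST2H4. HIST1H2BD with EZH2 siRNA was 1.25 above control siRNA and 0.48 below the control precursor. The H2AFY probes kept their opposite signs against both controls. For 9 histone probes, 8 of them replication-dependent, no test of these 5 comparisons passed.

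**Figure D5:**
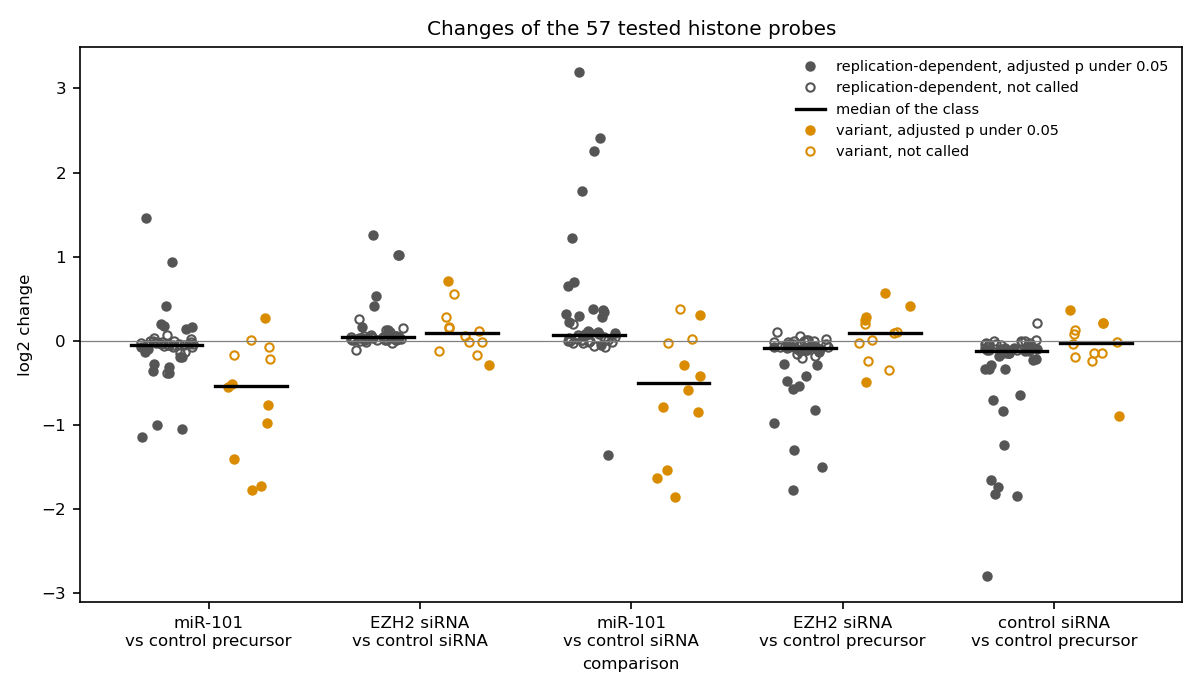
Log2 change of each tested histone probe in 5 comparisons, with replication-dependent probes left and variant probes right in each pair. Filled points passed an adjusted p under 0.05, open points did not, and bars are the class medians. In the comparison of control siRNA with the control precursor 31 replication-dependent probes are filled below 0 and none above.

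Among genes that make and process histone mRNA, falls predominated with miR-101. Of 22 such genes tested 15 were lower and 1 higher with miR-101 against the control precursor, with a median log2 change of -0.29, whereas all probes gave 18.5% lower. NPAT, the coactivator of clustered histone transcription, changed by -0.54, and SLBP, which binds the stem-loop, by -0.88. CCNE1 and CDK2, the cyclin and kinase that act on NPAT, changed by -0.54 and -0.99, and the S phase factor E2F1 by -1.21. HINFP, the factor of H4 promoters, was the 1 that rose, by 0.17. With EZH2 siRNA 2 of the 22 were higher, E2F1 by 0.53 and CCNE1 by 0.28, and 1 lower, CDK2 by 0.44. Over all probes 4.42% were higher and 3.84% lower there. Between the controls, with control siRNA, 6 were lower and 2 higher, beside 12.1% and 11.6% of all probes. E2F1 was among the lower with -0.84.

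Histone chaperones and DNA synthesis genes were counted in the same way. Of 25 chaperone and deposition genes tested 16 were lower and 1 higher with miR-101, with a median of -0.55, and 2 were lower and 3 higher with EZH2 siRNA. Over all probes 18.5% were lower and 19.8% higher with miR-101, and 3.84% lower and 4.42% higher with EZH2 siRNA. NAP1L1, a chaperone of H2A and H2B, changed by -2.19 with miR-101, NASP, which holds H3 and H4, by -1.67, and ASF1B, which passes them to new DNA, by -1.58. CHAF1B, a subunit of the replication-coupled assembly factor, changed by -0.73, and ASF1A rose by 0.44. With EZH2 siRNA ASF1B was 0.56 higher and NAP1L1 0.58 lower. Of 20 DNA synthesis genes 18 were lower and 0 higher with miR-101, with a median of -1.21, and 3 lower and 2 higher with EZH2 siRNA. The replicative helicase genes MCM3 and MCM4 changed by -2.06 and -1.93 with miR-101 and by -1.30 and -0.29 with EZH2 siRNA. Whether these genes take part in the histone changes was not tested.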

How the data were processed

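RNA of 12 UM-UC-3 samples was hybridised to Illumina bead arrays of 1 colour, in 4 groups of 3. The deposited raw table gives an average bead signal, in intensity units with no background subtracted, and a detection p-value for each of 46713 probes, per the file headers. BeadStudio is named, without a version, in the submitters' processing notes. The authors also deposited a table of quantile-normalized intensity on a linear scale, which served as an alternative. Nothing in the sources gives a probe sequence. The array number limits the precision.

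Signals were background-corrected from the detection p-values, quantile-normalized and taken to log2 by the neqc function of limma 3.58.1 under R 4.3.3, after an offset of 16 was added. The 17844 probes with a detection p-value under 0.05 on 3 or more arrays were kept. All 12 arrays entered one linear model of the 4 groups, fitted by lmFit and moderated by eBayes (8 residual and 1.29 prior degrees of freedom). Two-sided p-values were adjusted by Benjamini-Hochberg over these 17844 probes, with a threshold of 0.05. Interval bounds are at the 95% level. The offset and the wide background SD both make the log2 changes of dim probes too small. The restricted background kept the same offset.

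Members were named through their accession in a RefSeq table of GRCh38.p14 (80 probes) or an older symbol (1 probe). Upstream and microRNA sequences came from tables of the same build with Python 3.11.15 and pandas 2.3.3, and plots were drawn with matplotlib 3.10.9. The members and gene lists were chosen with earlier results of these data known. Genes were named by a rule: EZH2, all variant probes tested, and the 8 replication-dependent probes with the highest mean. The rule also took the 6 largest rises and falls in each treatment and the 4 largest each way between the controls. Of each pathway list it took up to 4 genes with the smallest adjusted p in each treatment. SNRPB, of the genes that make and process histone mRNA, met the rule and changed by -0.45 with miR-101 (limma adjusted p 4.21e-05). NPAT, SLBP, HINFP, ASF1A and CHAF1B were named besides, after their values were seen. So were HIST1H4E, HIST2H3C, HIST1H3C, HIST1H3H, HIST1H2BJ and genes in the patterns against both controls. Arrays of a group correlated at 0.992 to 0.999, and 0 pairs held identical signals. Of the marker lists 2 genes are not reported here. The procedure was tested on simulated data. The alternatives were the authors' normalized table, median scaling, no background correction, 2 other filters, array weights, a replicate block, an intensity trend, 1 probe per gene, the 2 groups alone, each array left out, the restricted background, and leaving out the probes of discordant detection. The last 2 were chosen after the data were seen.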

Additional observations from a re-analysis of the deposited data

Results flagged for a closer look

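The treatments differed in 27 of the 57 histone probes tested, by limma's test of the difference between the change with miR-101 and the change with EZH2 siRNA, each against its own control. Over all 17844 probes tested, 28.3% were called in this test. Of the 27 histone probes, 24 had the lower change with miR-101, beside 13.8% of all probes tested. HIST2H2BE and HIST1H3H were called in both treatments with opposite signs, a pattern whose share over all probes was not counted. For HIST2H2BE the change was -0.38 with miR-101 and 0.16 with EZH2 siRNA, a difference of -0.55 (limma adjusted p 8.68e-05). For HIST1H3H it was -0.19 with miR-101 and 0.13 with EZH2 siRNA, a difference of -0.31 (adjusted p 0.000498). Each response was measured on its own chip.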

How the results depend on the processing

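Of 170 changes of named probes, 13 that had not passed the test took the other sign under 1 or more alternatives, and 0 that had passed did. H1FX with EZH2 siRNA, for example, ran from -0.14 to 0.07. The count of called probes for EZH2 siRNA against control siRNA, 9, was the least stable: it was 4 with median scaling, 14 with the restricted background, 5 with no filter and 16 with array weights. For EZH2 siRNA against the control precursor the count of 28 became 14 with median scaling and 17 with the 2 groups alone, and for control siRNA against the control precursor the count of 35 became 21 with median scaling. The replication-dependent median with miR-101, -0.04, was -0.129 in the authors' table, -0.128 with no background correction and -0.294 with the restricted background. With EZH2 siRNA that median was 0.137 in the authors' table, 0.0354 with median scaling, 0.136 with no background correction, 0.305 with the restricted background and 0.0209 with no filter. The variant median with miR-101 was -0.188 with no filter and -0.657 with 1 probe per gene, and with EZH2 siRNA 0.158 with the restricted background, 0.0081 with no filter and 0.0276 with 1 probe per gene. The cause was not tested.

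Leaving out each array in turn gave 26 to 29 calls for miR-101 against the control precursor, 4 to 12 for EZH2 siRNA against control siRNA, 28 to 34 for miR-101 against control siRNA, 18 to 29 for EZH2 siRNA against the control precursor, 25 to 35 between the controls and 24 to 29 for the difference of the responses. The medians then ran from -0.0499 to -0.0289 (replication-dependent) and -0.626 to -0.400 (variant) with miR-101, and from 0.0366 to 0.0479 and 0.0830 to 0.101 with EZH2 siRNA. The count for EZH2 siRNA was 4 without EZH2 siRNA replicate 1 and also without control siRNA replicate 1 or 3. It was 5 without EZH2 siRNA replicate 2 or 3 and also without control siRNA replicate 2. The count against the control precursor was 18 without EZH2 siRNA replicate 2.

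Nothing in the labels says whether the replicate numbers pair the samples. Same-numbered deviations correlated at -0.0917, 0.164 and 0.239 on the precursor chip and at -0.132, 0.356 and -0.0501 on the siRNA chip. With 3 arrays a group these values do not settle the pairing. With the replicate block the EZH2 siRNA count was 4 and the miR-101 count 28. Median scaling moved the share of higher among all calls for EZH2 siRNA against control siRNA to 30.6%, against 53.5%, and between the controls to 74.9%, against 48.9%. Among histone calls those shares were 100% and 9.52% with median scaling, against 88.9% and 8.57%. The fit on 2 groups alone cannot give the difference of the responses. Signal near background limits what the 26 dim clustered probes can show.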
